A study of Homo sapiens with 8 samples.

Results

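The cells described are the strongly labelled wild-type (WT) cells of a single-cell EdU sequencing (scEdU-seq) study, 483 of 1594 WT wells and of 3023 wells in all. A well was taken as a strongly labelled cell when it held at least 5000 molecules on chromosomes 1 to 22, 1 molecule being 1 deposited fragment. The members were thus chosen by their own molecule count. The cells are RPE-1 hTERT, an established human line of retinal pigment epithelium that telomerase keeps dividing. They received 1 pulse of 10 µM EdU for 15 min and no other treatment, were fixed in ethanol and were sorted into 384-well plates. The 8 plates each held WT wells and wells of the CFAP20 knockout (CFAP20-KO) of the same line, which were labelled and fixed alike; 431 CFAP20-KO wells passed the same minimum and serve here only as the nearest set for comparison. Genotype was read per well from the treatment column of the files, because the genotype label of the plates names the knockout alone. The labels do not say how the knockout was made or whether it is 1 clone. The labels name plates but not separate cultures, so p-values over plates measure the spread between plates, which may be technical.

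EdU is a thymidine analogue that enters DNA only where it is being copied, so the fragments recovered from a cell mark the stretches that its replication forks passed during the pulse. Gene-rich, open chromatin is copied early in S phase and gene-poor chromatin late, and the inactive X chromosome of female cells is among the last parts of the genome to be copied. Forks start in groups along a chromosome, and a fork that moves for the length of a pulse leaves a labelled track.

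The plates held 1746074 to 4181841 fragments in 377 or 378 wells, and 91.1% to 92.8% of them lay on autosomes. Strongly labelled WT cells made up 30.3% of WT wells and held 88.4% of the autosomal molecules of WT wells. Their number per plate was 61, 73, 71, 65, 57, 70, 53 and 33 for plates 1 to 8. Every fragment position refers to GRCh38. Every well barcode recurs on other plates of the series. The 483 cells carried 284 distinct barcodes, of which 133 were found in more than 1 plate. A median of 1.08% of a cell's molecules (highest 6.95%) had the same position, direction and length in a well of the same barcode on another plate, against 0.101% for the next barcode. Without those molecules the width of quintile 5 minus that of quintile 1 (explained below) was 7.99 kb, and 2.87% of pairs of cell and arm were called higher and 5.04% lower. No doublet caller was run.

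Molecules per cell spanned 14.2-fold, from 5019 to 71166, with a median of 25127 and quartiles of 16211 and 36474.5. This count chose the cells, so its spread is a description. The 48 cells with most molecules held 19.3% of the total. The SD of log2 molecules within a plate was 0.81 ± 0.08 (SD, n = 8 plates), from 0.63 in plate 7 to 0.90 in plate 1. Plate medians were 31459, 31512, 23821, 27474, 26123, 25258, 24202 and 14981 molecules for plates 1 to 8. Plate 8, with the fewest cells, also had the lowest median, and its highest cell held 33491 molecules. The minimum lies where wells were few: 25 WT wells held 4000 to 4999 molecules and 11 held 5000 to 5999. The nearest wells outside it held 4981, 4958 and 4957 molecules, and the nearest inside held 5019, 5166 and 5186.

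**Figure D1:**
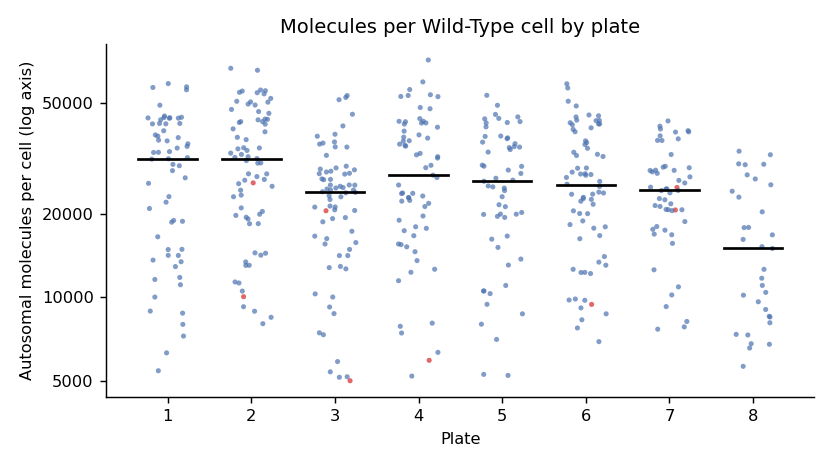
Autosomal molecules of each of the 483 WT cells (log axis) by plate, with 1 point per cell and a line at the plate's median. Red points mark the 8 cells whose molecules were spread evenly. Medians lie between 14981 in plate 8 and 31512 in plate 2.

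A correspondence analysis of 5411 bins of 500 kb gave the cells an S-phase order, which is their order on its first axis. The end at which molecules lay in gene-rich bins was called early, and a cell's position is its rank between 0 (early) and 1 (late). Axis 1 held 24.8% of the variation, axis 2 held 13.4% and axis 3 held 6.36%. An order made from odd-numbered chromosomes and one made from even-numbered chromosomes gave Spearman rho = 0.998 over the 483 cells and 0.996 to 0.998 within plates. The cells share libraries and the same bins' gene content across chromosomes, so rho is given as a description. The median cell moved by 0.00828 of the order between those 2 orders, and the cell that moved furthest by 0.0807. Position fell with the gene density under a cell's molecules at rho = -0.992, again over cells and as a description, since gene density set the direction.

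All plates held cells along the whole order. The first 20% of the order (quintile 1) held 13.8% of the cells of plate 4 and 27.9% of those of plate 1. Quintile 5, the latest, held 11.5% of the cells of plate 1 and 25.7% of those of plate 6. On the first 2 axes the cells formed an arc, and 20 cells from all 8 plates lay off it. Off-arc cells held a median of 8194.5 molecules against 25674 in the other cells. They also had more molecules in common with same-barcode wells of other plates, a median of 2.33% against 1.08%. The limit for lying off the arc was set after seeing the data, and results are given without these cells where they change.

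Of the 20 off-arc cells, 8 had molecules spread almost evenly over the genome. They came from 5 plates, held 5019 to 25772 molecules, and stood at positions 0.481 to 0.570. In these 8 cells, pairs of molecules 5 to 10 kb apart were a median of 1.18 times as dense as pairs 400 to 500 kb apart, against 6.20 times in the other 475 cells. Their index of labelled regions, explained with track width below, was 76714 to 546484, while the highest of the other cells reached 33661. The 8 cells were chosen by that index, at over 5 times its median, so the index and the pair densities only describe them. Chromosome X took 4.71% to 6.29% of their autosomal and X molecules, and X makes up 5.22% of the usable length. Median mitochondrial share was 0.668% in them and 0.140% in the others, and median fragment length was 273.5 and 255 bp. Molecules shared with same-barcode wells were 0.928% to 6.95%. X share, mitochondrial share and fragment length did not choose these cells, and the part of shared molecules in the pattern was not tested.

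Molecules per cell followed a hump along the order. The median rose from 18678 in quintile 1 to 27806.5 in quintile 2, 27858 in quintile 3 and 30813.5 in quintile 4, and was 22871 in quintile 5. Within each quintile the cells still spanned a wide range, from 5166 to 42882 in quintile 1 and from 7327 to 56483 in quintile 5. The plate means ran from 9639 to 22086 in quintile 1 and from 18252 to 43772 in quintile 4. These values are descriptions, since the molecule count chose the cells.

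Chromosome X was the readout that changed most along the order, and it did not place the cells. Its share had a median of 2.12% in quintile 1, 2.57% in quintile 2, 3.55% in quintile 3, 5.06% in quintile 4 and 14.9% in quintile 5. Single cells of quintile 1 lay between 1.43% and 3.30%, and those of quintile 5 between 6.60% and 44.5%, so that these quintiles did not overlap. The mean over plates was 2.29% ± 0.124 in the first tercile of the cells and 12.1% ± 0.910 in the last tercile (SD, n = 8). The difference was 9.79 ± 0.926 percentage points and had the same sign in 8 of 8 plates (exact two-sided sign-flip test, adjusted p = 0.00977). The smallest p that 8 plates allow is 0.00781 before adjustment. More than 10% X was found in 90 cells, 84 of them in quintile 5, and more than 25% in 11 cells of 5 plates, the earliest of them at position 0.821.

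**Figure D2:**
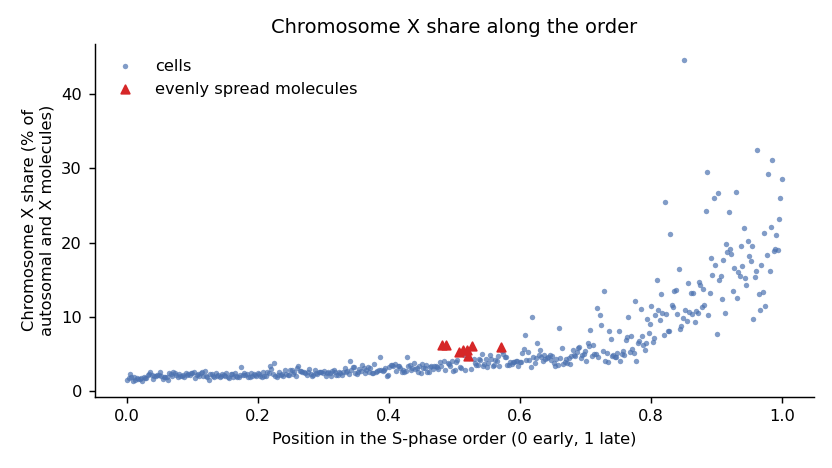
Chromosome X share of autosomal and X molecules (percent) of each of the 483 cells against position in the S-phase order. The share is at most 3.30% in quintile 1 and reaches 44.5% late; the 8 cells with evenly spread molecules (triangles) lie at 4.71% to 6.29% in mid-order.

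The other readouts that did not enter the order moved less. The share of molecules on unplaced and other contigs rose from 0.647% ± 0.0524 in the first tercile to 2.26% ± 0.188 in the last tercile, higher in 8 of 8 plates (exact sign-flip test, adjusted p = 0.00977). Such contigs hold satellite repeats and ribosomal DNA. Molecules that repeated the position and direction of another molecule of the cell rose from 3.73% ± 0.646 to 5.06% ± 0.611, again in 8 of 8 plates with the same exact adjusted p. The mitochondrial share fell from 0.205% ± 0.0238 to 0.160% ± 0.0110 in 8 of 8 plates (exact adjusted p = 0.00977), and this call was lost when cells needed 10000 molecules (adjusted p = 0.117). Median fragment length was 251 ± 9.05 bp in the first tercile and 254 ± 7.29 bp in the last tercile. The exact adjusted p for length was 0.0469, and leaving out any plate but plate 7 ended that call.

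Labelled tracks were wider in quintiles 2 to 5 than in quintile 1. Pairs of molecules of the same cell are in excess at short distances, and pairs 400 to 500 kb apart give the baseline. Track width is where that excess has dropped to 50% of its size at 5 to 10 kb. It is a distance between molecules of a pair and not the full length of a labelled track. Bins of 200 kb with over 3 times the median count (27 bins, 1.92% of the cells' autosomal molecules) were left out. In quintile 1 the width was 12.4, 12.4, 13.9, 12.6, 13.4, 12.04, 12.9 and 12.96 kb in plates 1 to 8. In quintile 5 it was 22.04, 20.8, 21.6, 21.4, 20.9, 18.6, 19.7 and 21.3 kb, so every plate of quintile 5 lay above every plate of quintile 1. The means were 12.8 ± 0.614, 14.9 ± 0.528, 15.8 ± 0.484, 16.9 ± 0.760 and 20.8 ± 1.12 kb for quintiles 1 to 5 (SD, n = 8). Width exceeded that of quintile 1 by 2.05 ± 0.852 kb in quintile 2, 3.01 ± 0.778 kb in quintile 3, 4.04 ± 0.869 kb in quintile 4 and 7.99 ± 1.04 kb in quintile 5. Each difference was positive in 8 of 8 plates (exact sign-flip test, adjusted p = 0.00781 for each). When the high-count bins were kept, the widths of quintiles 1 to 5 were 12.8, 14.9, 15.8, 16.5 and 15.5 ± 0.280 kb. Quintile 5 then lay below quintiles 3 and 4, so the further rise after quintile 4 depended on leaving those bins out. The difference of quintile 5 from quintile 1 was 2.68 kb, still positive with the same exact adjusted p. Measured as the mean distance of excess pairs instead, that difference was 13.3 kb.

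Single cells gave the same picture with a spread of their own. Width was measured in each of the 318 cells with at least 20000 molecules. The cells between the lowest and highest 10% ran from 12.9 to 20.2 kb around a median of 15.9 kb, and the extremes were 11.1 and 37.9 kb. Medians were 12.5 kb over 42 cells of quintile 1, 14.9 kb over 67 of quintile 2, 15.8 kb over 74 of quintile 3, 16.5 kb over 81 of quintile 4 and 19.3 kb over 54 of quintile 5. The SD over cells was 1.32 kb in quintile 1 and 4.10 kb in quintile 5. Widths from odd-numbered and from even-numbered chromosomes of the same cell correlated at rho = 0.944 over these cells, and at 0.775 to 0.969 within quintiles; the cells share plates, depth and place in the order. Pearson's r, computed first, was 0.875 over all and 0.223 in quintile 3; without the evenly spread cells it was 0.962 and 0.954.

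The index of labelled regions was lowest in quintile 3 when high-count bins were left out. It divides the usable length by 2 times the summed excess of pairs 1 to 100 kb apart. The index is thus read from how closely molecules cluster and is not a direct count of regions. Its mean over plates was 11206 ± 580 in quintile 1, 10052 ± 316 in quintile 2, 9339 ± 631 in quintile 3, 10040 ± 659 in quintile 4 and 11840 ± 911 in quintile 5. On the log2 scale quintiles 2, 3 and 4 lay below quintile 1 by 0.16, 0.26 and 0.16, in 7, 8 and 7 of 8 plates (exact sign-flip test, adjusted p = 0.0312 for each). Leaving out plate 4, 5, 7 or 8 ended these 3 calls, and leaving out plate 6 that of quintile 4, in a design where 7 plates allow no p under 0.0156. Quintile 5 was 0.08 above quintile 1 in 6 of 8 plates, which did not pass (exact adjusted p = 0.0859). With the high-count bins kept it was 1.01 below quintile 1 on the log2 scale (exact adjusted p = 0.0104). Quintile 5 would have passed without plate 1 or plate 2.

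**Figure D3:**
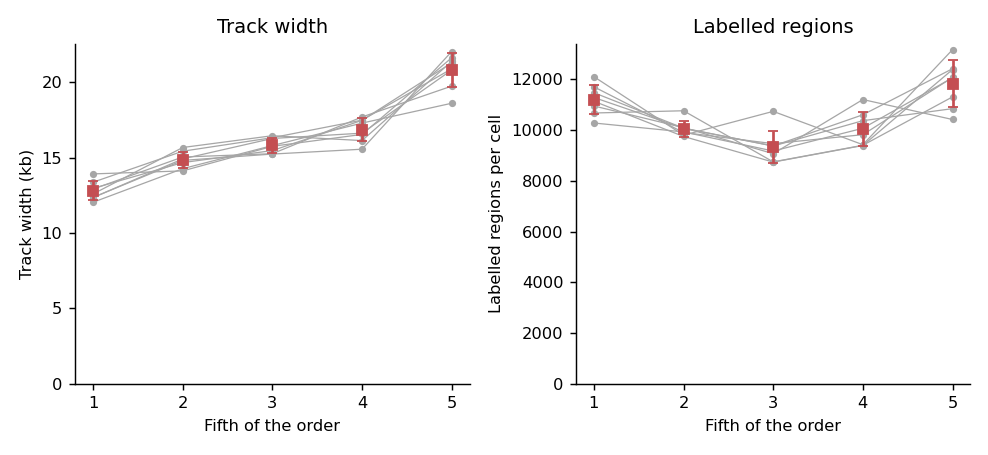
Track width (kb, left) and index of labelled regions per cell (right) by quintile of the S-phase order, with high-count bins left out. Grey lines are the 8 plates, squares the mean with SD. Mean width goes from 12.8 kb in quintile 1 to 20.8 kb in quintile 5, and every plate is wider in quintile 5 than in quintile 1, while the index stays between 8742 and 13176.

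Width did not differ detectably between cells with more and fewer molecules once place in the order was held. Within each plate and quintile the cells were split at their median molecule count, and the differences were averaged over quintiles. Width was 16.5 ± 0.753 kb in the cells with fewer molecules and 16.2 ± 0.440 kb in those with more, a difference of -0.255 ± 0.987 kb (exact sign-flip test, adjusted p = 0.484). The index of labelled regions was 10318 ± 597 and 10655 ± 348 (exact adjusted p = 0.484). A p of this size does not show that widths were equal.

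Chromosomes took different shares of a cell's molecules early and late. For each chromosome the order was made without it. Of 22 autosomes, 9 (40.9%) had a larger share in the last tercile of the cells than in the first, and 10 (45.5%) a smaller one (exact sign-flip test over 8 plates, adjusted p under 0.05). Gene-poor chromosome 18 (3.40 protein-coding genes per Mb) rose from 2.02% ± 0.0600 to 4.15% ± 0.254 of autosomal molecules, a log2 change of 1.04 ± 0.09. Chromosome 13, also gene-poor, rose from 2.64% ± 0.144 to 4.17% ± 0.338, by 0.66 ± 0.11 on the log2 scale. Gene-rich chromosome 17 (15.2 genes per Mb) fell from 3.66% ± 0.302 to 1.68% ± 0.154, and chromosome 22 from 1.73% ± 0.175 to 0.899% ± 0.0663, log2 changes of -1.12 ± 0.11 and -0.95 ± 0.18. Chromosomes 15 and 19 changed by -0.78 ± 0.10 and -0.72 ± 0.20. Each of these 6 chromosomes moved the same way in 8 of 8 plates (exact adjusted p = 0.0101). The calls on chromosomes 2 and 11 were the least stable. That on chromosome 2 was lost without any 1 plate but plate 5, and that on chromosome 11 without any but plates 4 and 5 (exact adjusted p of 0.0543 to 0.0724), which left as few as 8 smaller shares. Chromosome 11 was also lost at a minimum of 10000 molecules (exact adjusted p = 0.117) and with molecules summed over cells (0.0625).

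The course was not the same for all chromosomes. Chromosome 17 had reached most of its fall in the middle tercile of the cells, at -1.003 from the first tercile on the log2 scale. Chromosomes 19 and 22 were lowest in the middle tercile, at 1.25% ± 0.0635 and 0.859% ± 0.0443, against 1.47% ± 0.129 and 0.899% ± 0.0663 in the last. Chromosome 18 stood at 0.48 there and rose further. Chromosome 4 was highest in the middle, at 8.60% ± 0.290 against 5.68% ± 0.345 early and 7.25% ± 0.446 late. Chromosome 16 was lowest in the middle, at 2.10% ± 0.0790, and ended at 3.18% ± 0.157, above its early 2.74% ± 0.160. Chromosomes 10, 14 and 20 did not pass (exact adjusted p = 0.930, 0.241 and 0.385); chromosome 10 took 6.63% ± 0.132 early and 6.63% ± 0.290 late, with 5.41% ± 0.122 between.

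Single genes were placed on the same order. Of 6025 long (50 kb or more) protein-coding genes on autosomes, 2680 had at least 20 molecules in every plate. A gene's timing is the mean position of the cells weighted by their molecules in it, and its spread is the SD of those positions. The median gene stood at 0.422 with a spread of 0.168. The earliest was PITPNM2, a phosphatidylinositol transfer protein, at 0.155 ± 0.0516 (SD, n = 8 plates). It was followed by RAB31, a small GTPase of membrane traffic, at 0.157 ± 0.0279, GBF1, a Golgi exchange factor for ARF proteins, at 0.162 ± 0.0385, ZNF148 at 0.163 ± 0.0290 and ARMC9 at 0.174 ± 0.0448. The latest was CNTN6, a neural contactin, at 0.874 ± 0.0225. GABRB2, a GABA-A receptor subunit, followed at 0.870 ± 0.0322, then LOC124906005 at 0.869 ± 0.0492, GRM7, a metabotropic glutamate receptor, at 0.869 ± 0.0240, and SMOC2, a matricellular protein, at 0.867 ± 0.0316. Neighbours in these 2 runs of 5 did not differ beyond their spread over plates. CFAP20 itself, on chromosome 16, held 56 molecules and stood at 0.257 ± 0.103.

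The spread says over how long a part of the order a gene was labelled. Among genes in the middle of the order the median spread was 0.168. The most spread were ACAD11, an acyl-CoA dehydrogenase, at 0.296 ± 0.0358 and DNAJC13, a co-chaperone of endosomes, at 0.283 ± 0.0427, which are neighbours on chromosome 3. SH3RF3 (0.272 ± 0.0227), DLGAP1 (0.271 ± 0.0175) and TAOK3 (0.269 ± 0.0335) came next. The least spread were SATB1, a chromatin organiser, at 0.112 ± 0.0183, VWA5B1 at 0.113 ± 0.0384, METTL25 at 0.117 ± 0.0265, PSMA8 at 0.120 ± 0.0319 and PAX5, a B-cell transcription factor, at 0.121 ± 0.0309. Thus SATB1 was labelled in a narrow window around position 0.664, while ACAD11 was labelled in cells far apart in the order.

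Common fragile-site genes are very long genes at which chromosomes tend to break under replication stress. Of 27, 26 were measured, and all 26 were later than the median gene, with a median position of 0.644 and a median spread of 0.199. Of these, 21 had a spread above that of the median gene. Spread was not matched for gene length: DPYD spans 843 kb and CNTNAP2 2304 kb, while genes from 50 kb were measured. How far timing differences along a long gene enter its spread was not tested. DPYD, which breaks down pyrimidines, was the earliest at 0.430 ± 0.0192 and MAGI2, a scaffold protein, stood at 0.502 ± 0.0310. CSMD1 at 0.847 ± 0.0428 and CNTNAP2 at 0.840 ± 0.0312 were the latest. WWOX and FHIT, at the best-known fragile sites, stood at 0.822 ± 0.0201 and 0.811 ± 0.0323.

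Of 20 neuronal genes, 18 were measured and 17 were later than the median gene, with a median of 0.722; CNTN6 and GABRB2 were the latest of these too. The exception was the potassium channel gene KCNQ5 at 0.314 ± 0.0225, and SYT1, a synaptic vesicle calcium sensor, stood at 0.423 ± 0.0221. Of 25 cell cycle and replication genes, 8 were long enough and measured, and 6 of these were earlier than the median gene. POLD3, a polymerase delta subunit, stood at 0.216 ± 0.0466 and ATR, a checkpoint kinase, at 0.249 ± 0.0396, while ORC5, of the origin recognition complex, stood at 0.531 ± 0.0225 and CDK14 at 0.520 ± 0.0314. Of 19 adhesion and matrix genes that RPE-1 uses, 5 were measured, 3 of them earlier than the median gene. CALD1, caldesmon, stood at 0.240 ± 0.0267 and COL5A2 at 0.277 ± 0.0336, while FBN2 stood at 0.454 ± 0.0255 and COL5A1 at 0.653 ± 0.0652. Lists are described by counts, with no test.

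The level of a chromosome arm common to all cells was read as its molecules per usable length against other autosomes at matched timing. Of 39 autosomal arms, 8 (20.5%) stood above 0 on the log2 scale and 17 (43.6%) below (exact sign-flip test over 8 plates, adjusted p under 0.05). One stood apart: 10q was at 0.49 ± 0.03, 1.407-fold, in 8 of 8 plates (exact adjusted p = 0.0152). RPE-1 is known to carry an extra copy of distal 10q, and windows of 10 Mb between 60 and 130 Mb of chromosome 10 were 1.47-fold to 1.62-fold. The window from 50 to 60 Mb was 1.04-fold. The other 7 arms above 0 were 2p, 3q, 4q, 5q, 6p, 8q and 12p, at 1.02-fold to 1.05-fold. Those below were 1p, 5p, 7q, 8p, 9p, 9q, 10p, 15q, 16p, 17p, 17q, 18p, 19p, 19q, 20q, 21q and 22q, at 0.846-fold (19p) to 0.980-fold (1p). These levels were not even along every arm. On chromosome 8 the window that starts at 1 was 0.597-fold and that at 20000001 was 1.007-fold. On chromosome 9 those at 60000001 and 70000001 were 0.565-fold and 1.02-fold. On chromosome 15 those at 20000001 and 50000001 were 0.601-fold and 1.04-fold. On chromosome 12 those at 10000001, 20000001 and 30000001 were 1.04-fold, 1.17-fold and 0.876-fold. All windows of chromosome 19 were below 1, at 0.829-fold to 0.959-fold. Bins counted as usable from 0.1 of the median count. Whether low windows hold sequence to which fragments align poorly was not tested, so low levels are not read as copy number. Whether the cells high near the centromere of 10p, described below, lowered 10p was not tested. Several of the calls on arms were lost when 1 plate was left out, in a design where 7 plates allow no p under 0.0156. The call on 4q was lost without any 1 plate but plate 4 (exact adjusted p of 0.0703 to 0.0975). Its level in those cases was 0.0184 to 0.0261 on the log2 scale, against 0.0231 with all plates. Those on 1p, 2p and 20q were lost without plate 1, 3 or 6, and that on 7q without plate 3, 6 or 8 (exact adjusted p = 0.0508 each). With 1 plate left out 6 to 8 arms stood above and 14 to 18 below. At a minimum of 10000 molecules 7q did not pass (exact adjusted p = 0.0653). Without the match for timing 7 arms stood above and 14 below. There 3q, 4q, 6p, 7q, 9p and 18p no longer passed (exact adjusted p of 0.0508 to 0.516), and 5p was no longer below 0.

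Against this common profile each cell was compared with its 30 nearest cells on the first 2 axes of a correspondence analysis made without the chromosome in question. An arm of a cell was called when its log2 observed over expected molecules was at least 0.4 from 0, and at least 0.3 the same way in both interleaved sets of its 5 Mb blocks. Of 17980 pairs of cell and autosomal arm with at least 100 expected molecules, 507 (2.82%) were called higher and 899 (5%) lower. The interleaved sets of an arm correlated over cells at a median Pearson r of 0.437 across 39 arms, and the centromeric and telomeric parts at 0.246; the cells share plates and expected profiles.

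Late cells differed from their neighbours far more than earlier cells did. In quintiles 1 to 4, 4.47% of pairs were called, and in quintile 5, 21.2%. Over plates 1 to 8 the share in quintile 5 was 24.3%, 28.6%, 23.1%, 23.2%, 18.8%, 17.4%, 16.8% and 11.8%, and in quintiles 1 to 4 it was 3.499% to 5.31%, so the ranges did not overlap. The difference was 16.01 ± 5.61 percentage points (exact sign-flip test, p = 0.00781; this comparison was added after seeing the data). Limited to pairs with 200 to 400 expected molecules the shares were 5.86% and 25.1%, with the same sign in 8 of 8 plates. The median distance from 0 was 0.11 on the log2 scale in quintiles 1 to 4 and 0.24 in quintile 5. The SD over cells was larger in quintile 5 for 39 of 39 arms, with medians of 0.20 and 0.51. A cell of quintile 5 had a median of 7 called arms and none was without a call, whereas 116 of the 386 earlier cells had none. The quintiles were matched for expected molecules only, and not for how alike a cell and its nearest cells were. X share ran from 6.60% to 44.5% in quintile 5 and from 1.43% to 3.30% in quintile 1. Whether nearest cells are less alike at the late end, and whether that adds to calls and SD, was not tested.

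Arms at or below a log2 level of -2, which is at most 1 molecule for 4 expected, were nearly all late. Quintile 5 held 47 such pairs in 22 cells, and quintiles 1 to 4 held 2 pairs in 1 cell. 21q was such an arm in 8 cells, and 16p, 16q and 20p in 4 cells each. The cell numbered 59 of plate 2, at position 0.999 and with 18383 molecules, had 19 molecules on 21q against 212.5 expected, 41 on 15q against 336 and 24 on 18p against 197. The cell numbered 68 of plate 2 had 26 on 16q against 272 and 16 on 20p against 130. Its X share was 26.02%, and 23 of its arms were called. The cell with most called arms, 24, was number 57 of plate 2 at position 0.951. The cell numbered 68 of plate 6, with the highest X share, had 38 molecules on 9p against 259.

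Before quintile 5 such cells were few. Cell 21 of plate 8, at position 0.717 with 10420 molecules, had 17 molecules on 9p against 151 expected and 25 on 9q against 217, log2 levels of -3.12 and -3.09. In all, 10 of its arms were called. Cell 16 of plate 6, at 0.459, had 218 molecules on 5p against 622, a log2 level of -1.51 that was seen in both interleaved sets (-1.82 and -1.25). Cell 21 of plate 7, at 0.206, had 781 molecules on 2q against 1585, a level of -1.02 with -1.07 and -0.97 in the interleaved sets and only that arm called. Cell 9 of plate 8, at 0.349, had 245 on 7p against 574. In the first 80% of the order levels near -1 in both parts of an arm thus occurred in single cells of several plates, 1 arm at a time or a few. Single cells have no replicate, and an arm not labelled in a pulse and an arm present in fewer copies cannot be told apart.

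**Figure D4:**
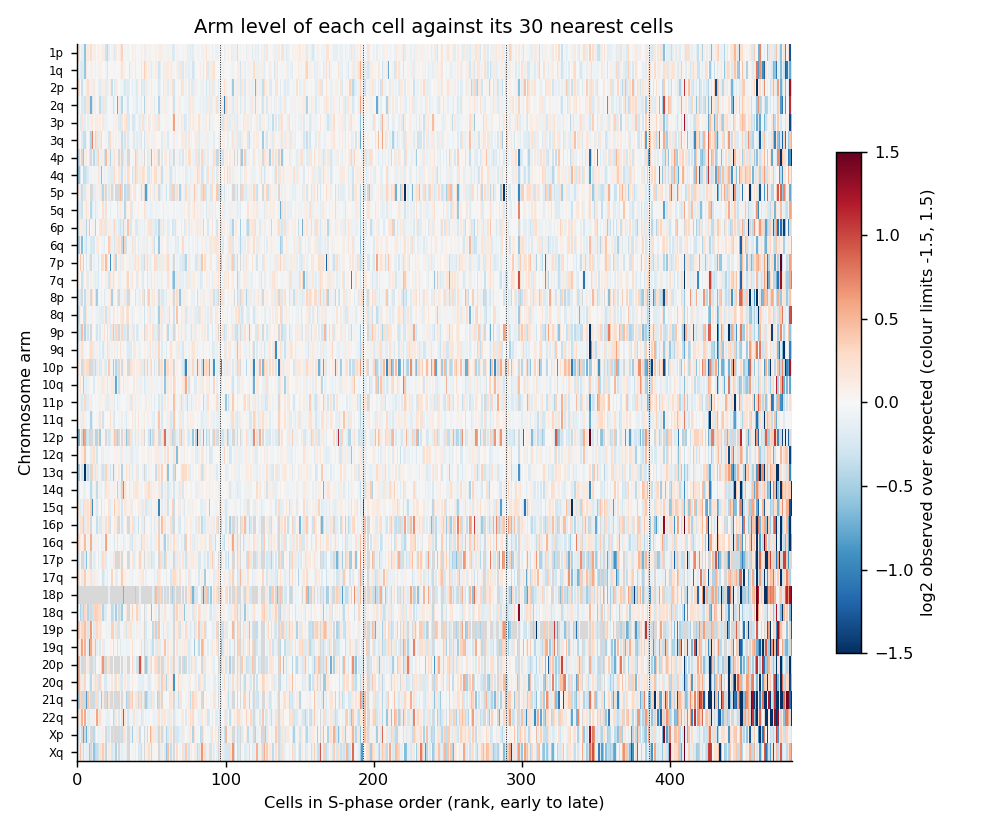
Log2 observed over expected molecules of each autosomal and X arm (vertical axis) in each of the 483 cells, ordered from early to late (horizontal axis); grey marks pairs with too few expected molecules and dotted lines the quintiles. Strong colours gather in quintile 5, where 21.2% of autosomal pairs were called against 4.47% before.

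The arms with most called cells were 21q (90 of 437 cells measured, 20.6%), 10p (83, 18.1%), 22q (70, 15.98%), 18p (68, 19.7%), 19q (62, 14.5%) and 12p (61, 14.1%), beside 7.82% over all pairs. For 21q, 58 of the calls lay in quintile 5. For 10p it was otherwise: 59 calls lay in quintiles 1 to 4, 46 of them lower. For 12p 42 lay there, 21 in each direction. On the X chromosome, which is not among these pairs, Xq was called in 106 of 469 cells, 52 higher and 54 lower, and its interleaved sets correlated at r = 0.775. The telomeric and centromeric parts of 10p gave r = 0.168.

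A stretch of chromosome 10 divided the cells into separate classes. Of the 27 high-count bins, 10 formed 1 run on 10p near the centromere, which was widened to the neighbouring bins that were also high in some cells, chr10:34800001-38200000. In 109 of 483 cells (22.6%) this stretch held at least 4 times the mean autosomal density. These high cells ranged from 4.20 to 41.8 times with a median of 10.8, and the other 374 from 0 to 3.36 with a median of 1.02. Only 15 cells lay between 2.83 and 5.66 times. The share of high cells was 26.2%, 27.4%, 19.7%, 13.8%, 22.8%, 18.6%, 30.2% and 24.2% in plates 1 to 8, so all plates held both classes. High cells held 76.0% of all molecules of the stretch. In 431 CFAP20-KO cells the highest value was 3.66 times and no cell was high. A count of 0 allows a share of up to 0.696%, for counting error over cells only, since cells of a plate are not replicates. The stretch was chosen in WT cells, so this is a description. Of 807 more weakly labelled WT wells, 150 (18.6%) were high.

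High cells occurred along the whole order, 15 of 97 in quintile 1, 23 of 96 in quintile 2, 26 of 97 in quintile 3, 18 of 96 in quintile 4 and 27 of 97 in quintile 5. They did not differ detectably from the others in mean position, 0.557 ± 0.0802 against 0.484 ± 0.0568 (exact sign-flip test over 8 plates, adjusted p = 0.469 over 6 measures). X share, mitochondrial share, fragment length and width gave adjusted p of 0.578 or more. Log2 molecules, which chose the cells, were 14.46 ± 0.42 and 14.44 ± 0.29. The result on position depends on the bounds of the stretch. With the run of high-count bins alone (35600001 to 37600000), the bounds first taken, 93 cells were high, 92 of them the same, with 2 in quintile 1 and 1 high CFAP20-KO cell. Their mean position was then 0.171 above that of the others (exact adjusted p = 0.0469).

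Within the stretch the excess was broad when high cells of all stages were pooled, but its place moved with the order. Over all cells, the bin at 35600001 had means of 2.94, 7.14, 7.65, 1.89 and 0.408 times the autosomal density in quintiles 1 to 5. The bin at 37200001 had 0.311, 0.343, 0.883, 2.06 and 21.2. The gene values that follow pool all stages. ANKRD30A, an ankyrin-repeat gene, stood at 16.04 ± 5.88 times the autosomal density in high cells and 0.968 ± 0.299 in the others. CUL2, a cullin of ubiquitin ligases, stood at 9.14 ± 3.66 and 1.02 ± 0.362, CCNY, cyclin Y, at 9.16 ± 3.80 and 1.19 ± 0.467, CREM, a cAMP-responsive transcription factor, at 7.94 ± 3.15 and 0.915 ± 0.367, and ZNF248 at 9.22 ± 2.38 and 1.04 ± 0.389. These 5 genes were higher in the high cells of 8 of 8 plates. ZNF33A, towards the centromere, stood at 3.31 ± 0.907 and 1.12 ± 0.273. These ratios restate how the cells were chosen and are not tested. PARD3, a cell polarity gene that reaches only just into the stretch, stood at 0.916 ± 0.254 in high cells and 1.02 ± 0.127 in the others. The change was abrupt on the telomeric side: the bin that starts at 34400001 was at 0.451 times in high cells, the next at 1.80 and the next, the first of the stretch, at 6.86.

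High cells also differed elsewhere in the genome. In 578 windows of 5 Mb outside the stretch, each level was compared with that of neighbouring cells and tested over plates with limma; none was higher in high cells and 14 (2.42%) were lower. Of these, 6 made up 10p from its start to 30 Mb, with log2 differences of -0.72 to -0.90 (limma adjusted p from 1.1e-06 to 7.46e-06). Another 7 made up X from 120 to 155 Mb, with differences of -0.47 to -0.78 (limma adjusted p from 2.31e-06 to 0.00424). The remaining window lay on chromosome 16 from 15 to 20 Mb, at -0.29 (limma adjusted p = 0.0354). At an unadjusted limma p under 0.05, 17 windows were higher and 29 lower. With quintiles 1 to 4 alone 3 windows were higher and 10 lower. Leaving out plate 5 or plate 6 gave 1 higher window.

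The shift on 10p was seen in nearly every high cell before quintile 5. In quintiles 1 to 4, the rest of 10p (start to 30 Mb) was below 0 in 81 of 81 high cells with enough molecules and in 85 of 295 others. Its log2 level had a median of -0.64 in high cells and 0.15 in the others, and 80% of cells lay between -1.10 and -0.32 and between -0.47 and 0.48. Levels at or below -0.5 were found in 57 high and 26 other cells. Distal Xq, from 120 Mb, was below 0 in 65 of 80 high and 145 of 281 other cells, with medians of -0.32 and -0.03, so that the classes overlapped. X from its start to 55 Mb had medians of 0.00 and -0.02, and 10q from 65 Mb had -0.04 and 0.00. In quintile 5 the levels were wider: the rest of 10p was below 0 in 23 of 27 high cells and 24 of 70 others, with medians of -0.77 and 0.13. High cells there ran from -2.09 to 1.25. Distal Xq was below 0 in 26 of 27 high and 29 of 70 other cells of quintile 5. The high cells thus carried more label next to the centromere of 10p, less on the rest of 10p and less on distal Xq. The bounds of these 4 segments were set after seeing the windows.

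**Figure D5:**
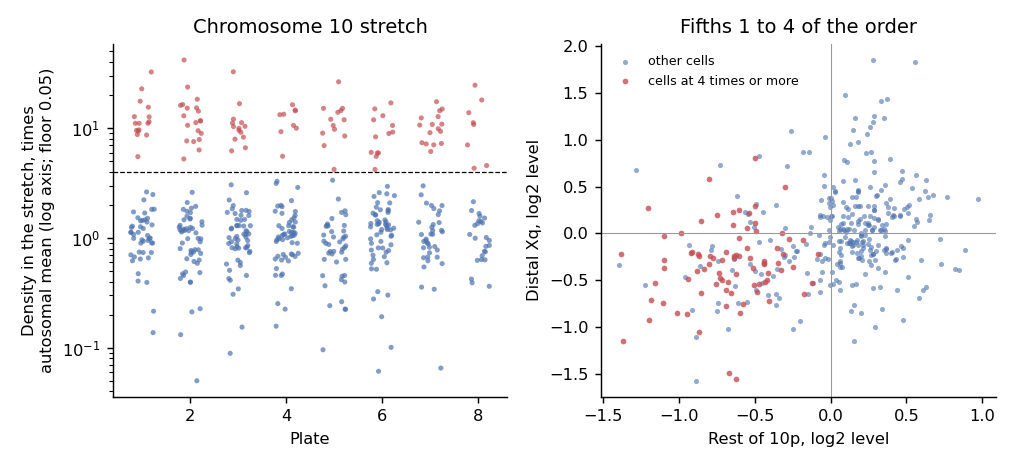
Left, density of the chromosome 10 stretch in each of the 483 cells by plate, in times the autosomal mean (log axis, values under 0.05 drawn at 0.05), with a dashed line at 4. Right, log2 level of the rest of 10p against distal Xq for cells of quintiles 1 to 4; high cells (red) have a median of -0.64 on 10p and the others (blue) 0.15.

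The other high-count bins behaved differently. The bin at 66000001 to 66200000 of chromosome 12, which overlaps LLPH, TMBIM4 and IRAK3, held a molecule in 99.6% of cells with a median of 6.28 times the autosomal density, and quintiles 1 to 5 had means of 9.93, 8.17, 6.49, 6.49 and 6.88. It was thus high in most cells at all stages. The bin at 41800001 of chromosome 10 rose from a mean of 3.21 times in quintile 1 to 113 in quintile 5, and the bin at 46200001 of chromosome 16 from 4.25 to 131. Of the 27 bins, 21 overlap no protein-coding gene.

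Beside the 431 CFAP20-KO cells, ordered and given expected profiles on their own, WT cells differed in called pairs and in the rise of width. Neither value chose the cells, but called pairs depend on depth, since a pair needed at least 100 expected molecules. The high-count bins were picked in WT cells alone, and the same bins were left out in both genotypes. The SD of log2 molecules, whose count chose both sets, was 0.81 ± 0.08 in WT and 0.69 ± 0.04 in CFAP20-KO and is given as a description. Called pairs of cell and arm made up 7.63% ± 1.35 in WT and 8.80% ± 1.45 in CFAP20-KO, higher in CFAP20-KO in 8 of 8 plates (exact sign-flip test, adjusted p = 0.0156), and this call was lost with 10000 molecules as the minimum (adjusted p = 0.0547). Track width rose by 7.99 ± 1.04 kb from quintile 1 to quintile 5 in WT and by 6.34 ± 1.11 kb in CFAP20-KO, a difference of -1.65 ± 1.26 kb in 7 of 8 plates (exact adjusted p = 0.0156).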

How the data were processed

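Each row of the authors' deposited files gives well, chromosome, position, signed fragment length and genotype of 1 fragment, per the file headers. They list positions and give no scaled value. Coordinates are those of GRCh38, per the submitters' processing notes. The aligner, read filters and any removal of duplicates: not given in the sources used here. A fragment was taken as 1 molecule, and WT wells with at least 5000 on chromosomes 1 to 22 were kept. Bins under 0.1 of the median count and high-count bins were left out of the order. Genes were placed with a RefSeq table of GRCh38 that has no strand, so overlapping genes share molecules.

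Plate values were tested by exact two-sided sign flips (numpy 2.4.6, scipy 1.17.1, Python 3.11.15) with Benjamini-Hochberg adjustment per family, and windows with limma 3.58.1 (R 4.3.3). The order, the arm calls, track width, the index of labelled regions, the sign-flip test and limma were tested on simulated data. The other steps were not. Values read off molecules cover counting error only in part, since PCR copies carry no molecular identifier here.

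Named genes are, among protein-coding genes on autosomes that span 50 kb or more and hold 20 or more molecules on each plate, the 5 earliest, 5 latest, and the 5 most and 5 least spread in the middle tercile; the 2 earliest and 2 latest of each list; and CFAP20. WWOX, FHIT, the genes of the chromosome 10 stretch and single cells were named after their values were seen. Arms named are the 6 with most called cells and those past the test. The members and lists were chosen with earlier results of these data known. The off-arc limit, the evenly spread cells (over 5 times the median index), the chromosome 10 stretch, its limit and segments, the comparison of quintile 5 with quintiles 1 to 4, and values without shared molecules were chosen after seeing these data. Alternatives covered minimum molecules, bins, repeated positions, width definition, limits, neighbours, axes and each plate left out.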

Additional observations from a re-analysis of the deposited data

Results flagged for a closer look

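Among 91 sets of 8 plate values examined, 8 had a plate far from the rest by Dixon's limit; chance marks about 1 in 20. Plate 8 had a median of 14981 molecules per cell against 23821 to 31512 elsewhere. Plate 1 stood out in 3 sets. Its log2 difference in labelled regions between cells with more and fewer molecules was 0.31, against -0.04 to 0.07. High cells of the chromosome 10 stretch had 0.69 more log2 molecules than others there, against -0.19 to 0.14. Its difference in called arm pairs between CFAP20-KO and WT was 4.17 percentage points, against 0.120 to 1.99. In plate 7 the SD of log2 molecules was higher in CFAP20-KO than in WT by 0.0778, and lower in the other plates. In plate 6 chromosome 4 rose by 0.60 on the log2 scale from the first to the last tercile, against 0.25 to 0.38. Arm 13q stood at 0.0561 in plate 7 (-0.0402 to 0.00426 elsewhere) and 20q at 0.0301 in plate 8 (-0.05 to -0.03 elsewhere).

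The rise of track width from quintile 1 to quintile 5 was smaller in CFAP20-KO than in WT cells, by -1.65 kb as CFAP20-KO minus WT, with 7 of 8 plates showing that sign. High-count bins picked in WT cells were left out in both.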

How the results depend on the processing

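Of 313 values recomputed under another setting, 270 kept their direction and side of the threshold, or moved by less than the spread, and 10 changed sign; with 1 plate left out 645 of 712 did so and 8 changed sign. For those below, the cause was not tested. With high-count bins kept, log2 labelled regions of quintile 5 minus quintile 1 were -1.01, and width in cells with more minus fewer molecules was 0.372 kb. Labelled regions of quintile 4 minus quintile 1 were -0.13 without chromosomes 10 and 12 and -0.14 with repeated positions counted once. With each cell thinned to 5000 molecules, regions in cells with more minus fewer were 0.0748 on the log2 scale and passed. At a minimum of 10000 molecules, the mitochondrial difference was -0.0152 percentage points, length 3.68 bp and CFAP20-KO minus WT called pairs 0.852 points, none past the threshold; with quintiles for terciles length was 5.02 bp. Called pairs above were 3.45% at a limit of 0.3 and 1.90% at 0.5, and below 3.86% at 0.5. Without the match for timing 4p, 5p, 12q, 13q and 18q stood at 0.00225, 0.0140, -0.0197, 0.0367 and 0.0413; at 10000 molecules 11p and 13q stood at -0.0127 and 0.00908. With equal weight per cell the median spread was 0.178 over all genes, 0.215 for fragile-site and 0.182 for neuronal genes, and the median position of cell cycle genes was 0.335. With the run of high-count bins alone on chromosome 10, high minus other cells differed by 0.171 in position and 0.0709 kb in width. In quintiles 1 to 4 alone, 3 windows were higher.

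With each plate left out in turn, log2 labelled regions ranged from -0.18 to -0.13 (quintile 2), -0.28 to -0.25 (quintile 3), -0.19 to -0.13 (quintile 4) and 0.0554 to 0.09996 (quintile 5), length from 2.51 to 4.32 bp, higher windows from 0 to 1, chromosome 10 share from -0.0200 to 0.0102, 7p from -0.000320 to 0.0231, 11p from -0.00140 to 0.0114 and 13q from -0.0107 to 0.00311. The plates are 1 group of samples, so no further paired analysis between samples was added. The tests over plates already use differences within plates, among them CFAP20-KO minus WT. Leaving out off-arc cells, cells high on chromosome 10 or shared molecules changed no call on width. Depth limits single cells: widths per cell needed 20000 molecules, and arms under 100 expected molecules were not measured.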
